A study of Homo sapiens with 8 samples.

Results

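Neuroendocrine differentiation of prostate cancer cells is followed by a small panel of genes, and 9 of them were examined here: *ENO2*, *CHGA*, *CHGB*, *SYP*, *NCAM1*, *INSM1*, *SCG2*, *SCG3* and *TUBB3*. The list was set by gene name, as markers of this differentiation state, with earlier results of these data known. The array carried 11 probes for the 9 genes among 42405 non-control probes, and 8 of the 9 genes passed the filter on dim probes, of 28850 genes that passed it in all. The cells were LNCaP, an established, androgen-responsive human prostate cancer line, grown in RPMI-1640 with serum. The study compared 2 groups of 4 replicates. One group was transfected with an siRNA against *GATA2* (siGATA2, 30 nM), a zinc-finger transcription factor, and the other with a scrambled siRNA (siControl, 30 nM). RNA was taken 72 hours after transfection in all 8 samples and hybridized to one-colour Agilent arrays. Both groups were transiently transfected populations of a single tumour line in culture, and no sorting of transfected cells is described. In such bulk RNA, fewer cells expressing a gene and less RNA per cell cannot be told apart.

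Neuroendocrine cells are hormone-releasing cells that store peptides in dense-core granules. Chromogranins and secretogranins (*CHGA*, *CHGB*, *SCG2*, *SCG3*) form the matrix of those granules, synaptophysin (*SYP*) is a membrane protein of small synaptic-type vesicles, and neuron-specific enolase (*ENO2*) is the glycolytic enolase typical of neurons and endocrine cells. *NCAM1* is a neural cell adhesion molecule, also known as CD56, *TUBB3* is a neuronal class of beta-tubulin, and *INSM1* is a zinc-finger transcription factor of developing endocrine and neural cells. In prostate cancer, LNCaP cells are a common model in which androgen withdrawal brings out such markers, and neuroendocrine tumours are recognised by them, together with loss of luminal genes.

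Of the 9 markers, *ENO2* alone was called higher, by 3.86-fold. *TUBB3* and *SCG3* were measured well above background on all 8 arrays and did not pass the test. *CHGA*, *CHGB*, *SYP*, *SCG2* and *NCAM1* lay near the detection limit, and no array measured *INSM1* well above background. Of the 8 markers tested, 1 was called higher and 0 lower at an adjusted p under 0.05 in limma, against 12.3% of all genes called higher and 14.2% called lower. The share called higher was near that of all genes, and in either direction 1 of 8 was called against 26.5% of all genes. At an unadjusted p under 0.05 the counts over the markers were also 1 and 0, and the methods' t-test gave the same 1 and 0. With a 2-fold change required as well, the counts were 1 higher and 0 lower, against 4.52% and 7.13% of all genes. The median log2 difference (siGATA2 minus siControl) was 0.29 over the 8 markers and 0.09 over all genes.

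The silenced gene itself was not lower on the arrays labelled siGATA2. Its log2 signal was 12.61, 12.54, 11.57 and 11.40 there, against 11.74, 11.28, 11.10 and 11.29 on the siControl arrays, a log2 difference of 0.68 with a standard error (SE) of 0.312 (adjusted p = 0.154, limma). With a block for the letters in the sample titles (one level for A and B, another for the rest), chosen after the values were seen, it was 0.47 and was called higher (adjusted p = 0.0261, limma). The groups overlapped, so every direction given here rests on the sample labels. Luminal markers of the line were present, with all 15 listed genes, among them *KLK3* and *FOXA1*, well above background on all 8 arrays. Of the 7 basal genes tested 2 were called higher (*DST* and *ITGB4*), with a summed signal of 1664 to 1806 on the siGATA2 arrays and 911 to 1189 on the siControl arrays, and *KRT5* failed the filter. Of the 5 fibroblast genes tested 1 was called lower (*PDGFRB*; summed signal 423 to 862 against 626 to 1051), and *COL3A1*, *LUM* and *FAP* failed the filter. Of the 7 leukocyte genes tested 2 were called higher (*PTPRC* and *CD68*; 1389 to 1687 against 853 to 998). Over all genes, 26.5% were called in either direction. The samples were cultures of a single line, and the source of these signals was not tested. The siControl arrays differed in sensitivity. Probes well above background numbered 34381 to 36974 on the siGATA2 arrays but 28498, 34819, 24319 and 34020 on siControl arrays 1 to 4, and the SD of the negative controls was 4.49 and 7.26 on siControl arrays 1 and 3 against 1.78 to 2.40 on the other 6.

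Proximal promoter sequences follow, so that a reader can set the start regions beside the values. They are shown of the marker called higher and of a granule gene that was as clearly measured but was not called. They are the 250 bases before the annotated start from RefSeq (GRCh38.p14), on the strand of the gene, 5′ to 3′. *ENO2* (gene at chr12:6914580-6923697, plus strand) is preceded by chr12:6914330-6914579, and *SCG3* (chr15:51681503-51721026, plus strand) by chr15:51681253-51681502. Capitals mark matches to ACGTG or GCGTG, the core words of the hypoxia response element, on either strand.
ENO2: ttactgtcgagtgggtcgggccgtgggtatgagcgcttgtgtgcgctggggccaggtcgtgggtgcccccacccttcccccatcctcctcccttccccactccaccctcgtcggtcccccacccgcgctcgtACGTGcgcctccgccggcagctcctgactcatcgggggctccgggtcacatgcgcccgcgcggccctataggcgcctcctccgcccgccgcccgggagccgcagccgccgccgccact
SCG3: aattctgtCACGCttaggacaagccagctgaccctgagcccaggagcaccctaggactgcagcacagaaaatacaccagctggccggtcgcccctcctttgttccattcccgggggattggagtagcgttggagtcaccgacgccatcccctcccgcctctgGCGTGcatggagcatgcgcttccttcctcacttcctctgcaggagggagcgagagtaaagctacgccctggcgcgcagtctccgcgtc
The 250 bases before *ENO2* held 74% G and C, and those before *SCG3* held 61.6%, against a median of 58% over all RefSeq promoters. A core word occurred once before *ENO2*, 118 bases upstream of the start, and at 2 places before *SCG3*, 242 and 88 bases upstream. At least one of these words occurs in 43.2% of the 35116 promoter windows of this length. The GATA word (AGATAA, also with G as its last base or T as its first, on both strands) is held by 22.3% of the windows. The left part of the site of REST, the repressor of neuronal genes (TTCAGCACC), is held by 0.288%, and the right part of that site (GGACAG) by 17.2%. None of these words was found in either window shown. The letters describe the sequence only.

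*ENO2*, the neuronal enolase, was the marker that was called. Its probe (A_24_P236091) gave a quantile-normalized log2 signal of 10.21, 10.33, 10.65 and 10.61 on siGATA2 arrays 1 to 4. On siControl arrays 1 to 4 the log2 signal was 8.46, 8.56, 8.55 and 8.42. The lowest siGATA2 array lay above the highest siControl array, and both spots of the probe were well above background on every array. The mean was 10.45 ± 0.214 (SD, n = 4) against 8.50 ± 0.0695 (SD, n = 4), a log2 difference of 1.95 with an SE of 0.128 (95% interval 1.65 to 2.25, adjusted p = 4.04e-05, limma). The exact two-sided permutation test over the arrays gave p = 0.0286, the smallest that 4 arrays against 4 allow. A larger log2 rise was measured in 307 genes, 1.06% of those tested. The sample titles carry letters whose meaning is not given in the sources used here. Within letters A and B the log2 difference was 1.81 (siGATA2 arrays 1 and 2, siControl array 1), and within letters D to G it was 2.11 (the other 2 and 3 arrays). *ENO2* was also called higher with 24 of the 25 other ways of processing. Scaling to the E1A spike-in probes was the exception. There the log2 difference was 1.42 (SE 0.502, adjusted p = 0.101) and the groups overlapped, siControl array 1 reaching a log2 signal of 10.07. Without siControl arrays 1 and 3, those of higher background, it was 1.96 (adjusted p = 0.000993, limma).

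**Figure D1:**
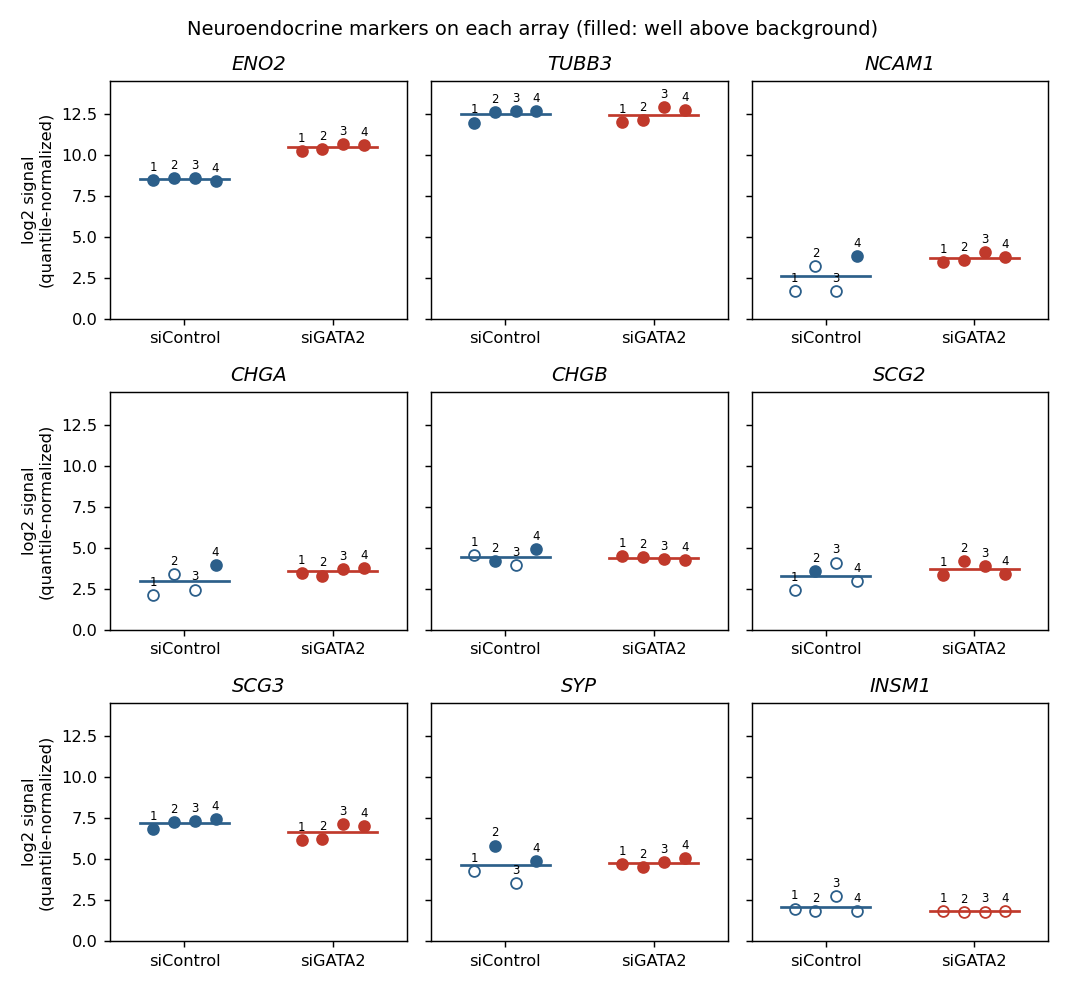
Log2 signal (quantile-normalized processed signal, vertical axis) of the brightest probe of each marker on the 4 siControl (blue) and 4 siGATA2 (red) arrays, numbered by replicate, with a line at each group mean; filled points were well above background and open ones were not. *ENO2* is separated between the groups, with 8.42 to 8.56 on siControl and 10.21 to 10.65 on siGATA2 arrays, whereas the groups of *TUBB3* and *SCG3* overlap and *INSM1* has open points on all 8 arrays.

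The other enolases behaved differently from one another. *ENO3*, the muscle enolase, had a log2 signal of 14.88, 14.82, 13.20 and 13.31 on the siGATA2 arrays and 12.89, 11.45, 11.50 and 11.45 on the siControl arrays. All siGATA2 arrays were above all siControl arrays, with a log2 difference of 2.23 (SE 0.515, adjusted p = 0.0147, limma). Its higher pair was siGATA2 arrays 1 and 2, whereas that of *ENO2* was arrays 3 and 4. *ENO1*, the ubiquitous enolase, had 15.44, 15.46, 15.81 and 15.77 on the siGATA2 arrays and 15.26, 16.05, 16.15 and 16.17 on the siControl arrays. Its log2 difference of -0.29 did not pass the test (adjusted p = 0.388, limma). The call of *ENO3* was lost with spike-in scaling (adjusted p = 0.170) and with the slide row as a block (adjusted p = 0.0645).

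*TUBB3*, the class of beta-tubulin used as a neuronal marker, was measured at a log2 signal of 11.99, 12.15, 12.90 and 12.73 on siGATA2 arrays 1 to 4 and 11.97, 12.63, 12.65 and 12.65 on siControl arrays 1 to 4. The groups overlapped, with siGATA2 arrays 3 and 4 above every siControl array and arrays 1 and 2 between siControl array 1 and the other 3. The log2 difference was -0.03 (SE 0.256, 95% interval -0.62 to 0.56, adjusted p = 0.946, limma; exact permutation p = 1). Low values of *TUBB3* were on the arrays with title letters A and B. Within letters A and B the means were 12.07 on 2 siGATA2 arrays and 11.97 on 1 siControl array, and within letters D to G they were 12.82 on 2 and 12.64 on 3. With the letter set as a block, a choice made after the values were seen, the log2 difference was 0.15 (adjusted p = 0.134, limma).

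Among the other beta-tubulins, *TUBB*, the widely expressed class, was lower on the siGATA2 arrays, with a log2 difference of -0.93 (SE 0.207, adjusted p = 0.0124, limma), and all 3 of its probes passed the test in that direction. *TUBB2A* was higher by 0.67 on the log2 scale (SE 0.143, adjusted p = 0.0102), although the difference was -0.02 with spike-in scaling and its other probe was not called. *TUBB1*, a platelet beta-tubulin, had a log2 difference of 1.55 that did not pass (adjusted p = 0.0514, limma), and none of its siControl arrays was well above background. Over the 14 paralogs of the markers tested, 1 was called lower and 2 higher, with a median log2 difference of 0.19. Of all genes, 26.5% were called in either direction.

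*SCG3*, a secretogranin that binds chromogranin A in granule membranes, was the granule gene of the panel that was well above background on all 8 arrays. Its log2 signal was 6.16, 6.22, 7.15 and 7.03 on the siGATA2 arrays and 6.83, 7.27, 7.33 and 7.47 on the siControl arrays. The siGATA2 arrays fell into a lower and a higher pair, and the higher pair lay above siControl array 1. With spike-in and with 75th percentile scaling the groups did not overlap. The means were 6.64 ± 0.524 and 7.22 ± 0.278 (SD, n = 4 each), and the log2 difference of -0.58 (SE 0.272, 95% interval -1.21 to 0.05) did not pass the test (adjusted p = 0.161, limma; exact permutation p = 0.143). As in *TUBB3*, the low arrays carried the title letters A and B. Within letters A and B the log2 difference was -0.64, and within letters D to G it was -0.26. With the letter set as a block it was -0.40 (SE 0.0989, adjusted p = 0.0165, limma), which passed, as it did in 1 other setting, spike-in scaling without siControl array 1 (adjusted p = 0.0430). In the remaining 23 alternatives *SCG3* was not called.

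The remaining granule proteins were dim. *CHGA*, chromogranin A, whose fragments are measured in blood as a marker of neuroendocrine tumours, had a log2 signal of 3.49, 3.31, 3.74 and 3.75 on the siGATA2 arrays and 2.12, 3.38, 2.46 and 3.93 on the siControl arrays. Its probe was well above background on all 4 siGATA2 arrays and on 1 of 4 siControl arrays. The log2 difference of 0.60 (SE 0.383, 95% interval -0.29 to 1.49) did not pass (adjusted p = 0.293, limma), and the difference became -0.09 without siControl arrays 1 and 3. The low siControl values were those of the 2 arrays with the noisier background.

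*CHGB*, chromogranin B, had a log2 signal of 4.51, 4.46, 4.33 and 4.26 on the siGATA2 arrays and 4.58, 4.19, 3.97 and 4.93 on the siControl arrays, of which 2 were well above background. The siGATA2 values all fell inside the siControl range, and the log2 difference was -0.03 (SE 0.209, 95% interval -0.51 to 0.46, adjusted p = 0.941, limma). *SCG2*, secretogranin II, the precursor of secretoneurin, had 3.35, 4.19, 3.87 and 3.39 on the siGATA2 arrays and 2.41, 3.56, 4.10 and 2.96 on the siControl arrays, of which 1 was well above background. Its log2 difference of 0.44 (SE 0.375, 95% interval -0.43 to 1.31) did not pass (adjusted p = 0.424, limma). The intervals of *CHGA* and *SCG2* include a 2-fold rise (a log2 difference of 1), and that of *CHGB* does not.

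*SYP*, synaptophysin, had a log2 signal of 4.67, 4.54, 4.79 and 5.05 on the siGATA2 arrays and 4.29, 5.82, 3.54 and 4.88 on the siControl arrays. The siControl arrays spanned a wider range than the siGATA2 arrays and enclosed them, with 2 of the 4 well above background. The log2 difference was 0.13 (SE 0.440, 95% interval -0.89 to 1.15, adjusted p = 0.854, limma), and it was -0.58 without siControl arrays 1 and 3 (adjusted p = 0.202).

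*NCAM1* had 3 probes, annotated to different transcripts, and they did not move together. The brightest (A_23_P1740, NM_001076682) had a log2 signal of 3.46, 3.60, 4.09 and 3.76 on the siGATA2 arrays and 1.69, 3.21, 1.69 and 3.85 on the siControl arrays, and was well above background on all 4 of the former and 1 of the latter. Its log2 difference of 1.12 (SE 0.500, 95% interval -0.03 to 2.28) did not pass (adjusted p = 0.144, limma; exact permutation p = 0.114). It was called higher without siControl array 4 and with the title letter as a random block, and it was 0.25 (adjusted p = 0.593) without siControl arrays 1 and 3, which held both lowest values. The probe A_33_P3363799 (NM_001242607) had 3.17, 2.60, 2.36 and 1.86 against 3.30, 3.07, 5.44 and 3.46, with 1 array in all well above background, and its log2 difference of -1.32 did not pass (adjusted p = 0.112). The third probe (A_33_P3363804, NM_001242608) failed the filter, with no array well above background. A mean over the probes gave a log2 difference of -0.10.

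*INSM1*, the transcription factor of the panel, was spotted 10 times per array. Of its 80 spots over the 8 arrays 1 was well above background, and that spot was among the 4 flagged as outliers. The mean log2 signal was 1.94, under the minimum of 3, so the gene was not tested. No change in *INSM1* could be detected at this sensitivity.

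**Figure D2:**
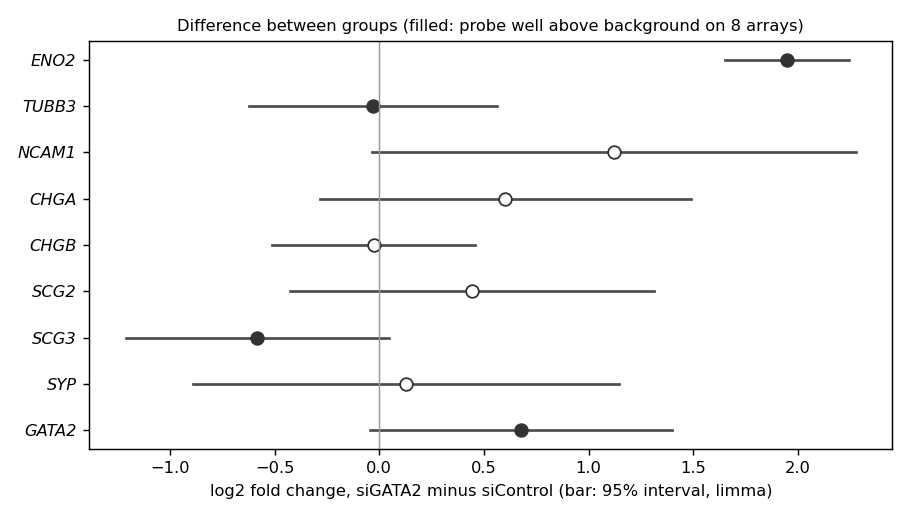
Log2 difference (siGATA2 minus siControl, horizontal axis) of each tested marker and of *GATA2*, with its 95% interval from limma; filled points had a probe well above background on all 8 arrays. The interval of *ENO2* (1.65 to 2.25) lies above 0, and those of the other 7 markers and of *GATA2* include it, with an end close to 0 for *NCAM1* (-0.03 to 2.28), *GATA2* (-0.04 to 1.40) and *SCG3* (-1.21 to 0.05).

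On each siGATA2 array 8 of the 9 markers were well above background, and on the siControl arrays 3 to 7 were. Since fewer probes of the whole array were well above background on siControl arrays 1 and 3, the difference between these counts was not tested. Within letters A and B and within letters D to G the log2 difference was 1.28 and 0.49 for *CHGA*, 1.84 and 1.01 for *NCAM1*, 1.36 and 0.09 for *SCG2*, 0.31 and 0.17 for *SYP*, and -0.09 and -0.07 for *CHGB*. Letters A and B held only 1 siControl array, array 1, and on it no spot of these genes was well above background. Of the 8 tested markers, 1 (*ENO2*) had groups that did not overlap, against 32.6% of all genes. Of genes well above background on all 8 arrays, 34.6% were called in either direction, and of the 3 such markers 1 was.

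For each marker well above background on all 8 arrays, the genes with the most similar profile, by the root mean square difference of centred log2 values over the 8 arrays among 13252 genes, were identified. For *ENO2* they were *ITPKA*, an inositol trisphosphate kinase (difference 0.103), and *CDKN1C*, a cyclin-dependent kinase inhibitor (0.111), each with a log2 difference between the groups of 1.83. For *SCG3* they were *CDKAL1* (0.0706) and *PKIA* (0.0780), and for *TUBB3* they were *NTAQ1* (0.0542) and *PFN1*, the actin-binding profilin (0.0570). None of the latter 4 was called. The profiles were matched over the same 8 arrays, so a group difference like that of the marker follows from how these genes were chosen.

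Genes around the markers were described by list. Each count here and below stands beside 14.2% of all genes called lower, 12.3% higher and 26.5% in either direction. The lists also differed in detection, with 1 of 7 neuropeptide genes tested well above background on all 8 arrays. Of 13 genes of granule cargo and prohormone processing tested, 2 were called lower and 0 higher, with a median log2 difference of -0.01. *VGF*, a granule protein of neurons and endocrine cells, had a log2 signal of 9.75, 9.54, 10.15 and 10.24 on the siGATA2 arrays and 11.41, 11.42, 11.44 and 11.31 on the siControl arrays, and fell by 1.48 on the log2 scale (SE 0.168, adjusted p = 0.000467, limma). *DDC*, the aromatic amino acid decarboxylase of dopamine and serotonin synthesis, fell by 1.94 on the log2 scale (SE 0.226), although its other probe, with a log2 difference of -0.54, was not called (adjusted p = 0.118). *CPE* and *PAM*, enzymes of peptide maturation, and *PCSK1N* did not pass. *PCSK1* and *PCSK2*, the prohormone convertases, failed the filter.

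Of 7 neuropeptide genes tested, of 15 listed, 1 was called lower and 0 higher. That gene was *GAL*, the precursor of galanin, with a log2 signal of 11.83, 11.69, 11.58 and 11.77 on the siGATA2 arrays and 14.54, 14.49, 14.35 and 14.40 on the siControl arrays. The 6.62-fold fall (SE 0.102 on the log2 scale) was called with all 25 alternatives. *NTS*, *VIP*, *SST* and *TAC1* were among those that failed the filter.

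Synaptic vesicle and SNARE genes moved in both directions, with 2 of 18 called lower, 4 higher and a median log2 difference of 0.31. *SYT4*, a synaptotagmin of dense-core vesicles, had a log2 signal of 12.09, 11.85, 10.75 and 11.08 on the siGATA2 arrays and 15.05, 14.56, 14.46 and 14.44 on the siControl arrays, a 9.10-fold fall (SE 0.314 on the log2 scale). *SYNGR3*, synaptogyrin 3, a vesicle membrane protein like synaptophysin, had 11.86, 12.03, 12.63 and 12.55 against 9.46, 9.83, 9.87 and 9.94, a 5.63-fold rise (SE 0.207 on the log2 scale). Both were called with all 25 alternatives. *SYN2*, a synapsin, was lower by a log2 difference of -1.38, and *SYT11*, *CPLX1*, a complexin, and *SYNGR1* were higher by 1.57, 1.37 and 0.50, with *SYT11* well above background on 2 of the 4 siControl arrays. *SYN2* lost its call with the slide row as a block (adjusted p = 0.0922) and without siControl arrays 1 and 3 (adjusted p = 0.0796). The sign of *SYNGR1* turned with spike-in scaling (-0.13). *SNAP25*, *SYT1* and *STX1A* of the release machinery were not called. *VAMP2* was not called by its brightest probe (log2 difference 0.39). In the fit over probes, in which 27% of probes were called, its other 2 probes were called higher, at 1.94 and 1.15. The brightest probe of *SV2A* (0.21) was not called. Its other probe was called higher (2.59), with no siControl array well above background.

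Of 14 neuronal cytoskeleton and identity genes, 2 were called lower and 1 higher, with a median of 0.03. *DPYSL3*, a collapsin response mediator of growing axons, fell by 2.54 on the log2 scale (SE 0.108) and *MAP2*, a dendritic microtubule protein, by 1.27 (SE 0.324). The call of *MAP2* held with 18 of the 25 alternatives and was lost with the slide row as a block (adjusted p = 0.0993), without siControl arrays 1 and 3 (adjusted p = 0.0686) and without normalization (adjusted p = 0.0864). *MAP1B* was higher by 0.37, a rise that was not called for its other probe and whose sign turned with spike-in scaling. *UCHL1*, a neuronal deubiquitinase also used as a neuroendocrine marker, had a log2 signal of 7.09, 7.37, 8.57 and 8.81 on the siGATA2 arrays and 6.10, 7.03, 6.77 and 6.60 on the siControl arrays. Its groups did not overlap, and its log2 difference of 1.34 lay just outside the threshold (SE 0.420, adjusted p = 0.0504, limma).

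Transcription factors of neuroendocrine cells were mostly dim. Of 10 tested, 0 were called lower and 3 higher, with a median of 0.03. Of the 4 that were well above background on all 8 arrays, 0 were called lower and 2 higher. Among all genes so measured, 34.6% were called in either direction. *SOX2*, a stem cell factor, had a log2 signal of 4.46, 4.12, 3.41 and 4.32 on the siGATA2 arrays and 1.77, 3.18, 1.72 and 2.97 on the siControl arrays, of which 1 was well above background. Its log2 difference of 1.67 (SE 0.402, adjusted p = 0.0176, limma) became 1.22 (adjusted p = 0.0594) without siControl arrays 1 and 3. The siControl mean of *SOX2* was 2.41, under the minimum of 3 set for the mean over all arrays. The call held with 17 of the 25 alternatives. *MYT1*, a zinc-finger factor of neural progenitors, was higher by 1.06 (SE 0.154), and *ONECUT2* by 0.39 (SE 0.101), with the sign of *ONECUT2* turned by spike-in scaling (-0.19). *NEUROD1*, *NKX2-1*, *NKX2-2*, *INSM2* and *PROX1* failed the filter.

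*REST* silences neuronal genes in other tissues with the help of corepressors. *REST* itself had a log2 difference of 0.11 (SE 0.199, 95% interval -0.35 to 0.57, adjusted p = 0.722, limma). The list of the complex also held splicing factors that oppose *REST*. Of its 16 genes tested, all well above background on all 8 arrays, 6 were called lower and 1 higher. The median was 0.05. Of all genes so measured, 34.6% were called in either direction. Among the lower genes were *KDM1A*, the histone demethylase LSD1 (-0.88), *CTDSPL* (-0.62), *CTDSP2* (-0.57), *HDAC2*, a histone deacetylase (-0.53), and *HMG20B* (-0.49). The higher one was *RCOR3* (0.95), a CoREST family member. *HDAC2* was called with 13 and *HMG20B* with 12 of the 25 alternatives. Other probes of *CTDSP2* and *HMG20B* were not called, while both probes of *HDAC2* were called lower in the fit over probes. *SRRM3*, a splicing factor that opposes *REST*, was not called by its brightest probe (log2 difference 0.02). The other 3 of its 4 probes were called higher, at 0.42 to 1.13, in the fit over probes, in which 27% of probes were called. The probe at 0.99 was well above background on 2 of the 4 siControl arrays. *SRRM4* failed the filter.

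The Notch pathway, which restrains neuroendocrine fate, had 2 of 14 genes lower and 2 higher, with a median of 0.04. *NOTCH4* (-1.46) and the inhibitory ligand *DLL3* (-1.13) were lower, and the ligand *JAG1* (1.11) and the target *HES4* (0.72) were higher on the log2 scale, with the sign of *HES4* turned by spike-in scaling (-0.06).

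Luminal genes were the list with most calls among those examined, with 7 of 15 lower, 2 higher and a median of -0.13. All 15 were well above background on all 8 arrays, and of all genes so measured 34.6% were called in either direction. *SLC45A3*, prostein, had a log2 difference of -2.87, *ACP3*, prostatic acid phosphatase, of -2.15, *KLK2* of -1.84 and *KLK3*, prostate-specific antigen, of -1.63. The call of *KLK3* held with 16 of the 25 alternatives and was lost with the slide row as a block (adjusted p = 0.0657) and without siControl arrays 1 and 3 (adjusted p = 0.149). *CDH1*, E-cadherin (0.78), and *KRT8*, a luminal keratin (0.56), were higher, although the sign of *KRT8* turned with spike-in scaling. *FOXA1*, *KRT18*, *TMPRSS2* and *EPCAM* were not called.

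**Figure D3:**
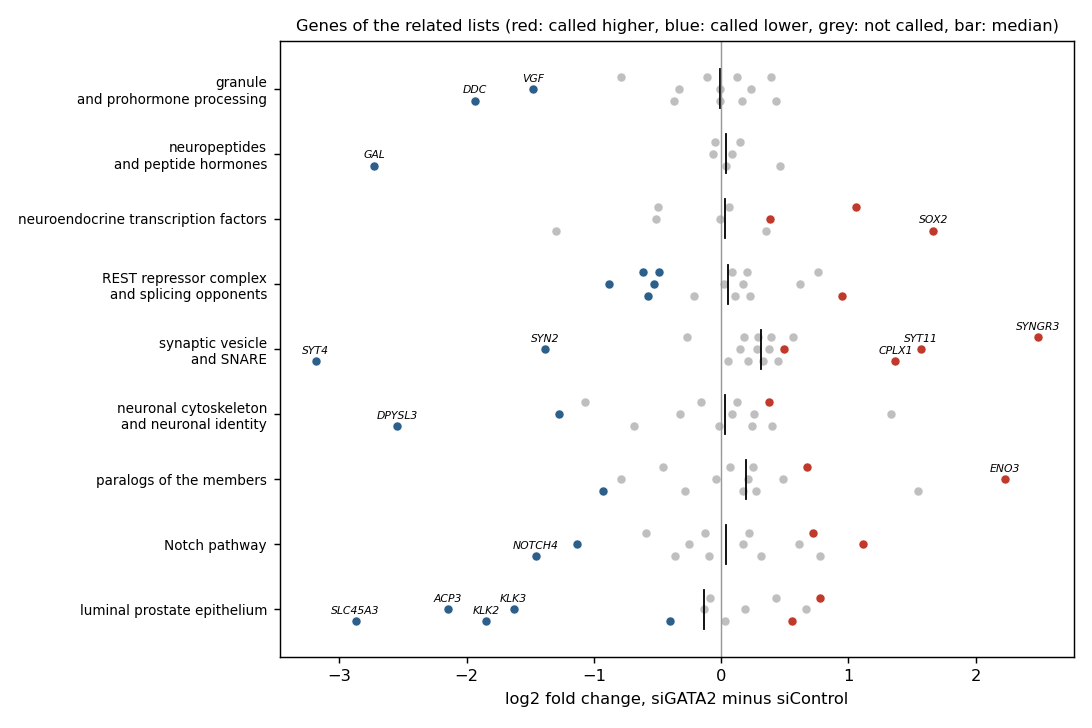
Log2 difference (siGATA2 minus siControl, horizontal axis) of the tested genes of the lists around the markers (rows), without the few that are not reported, with blue points called lower, red called higher and grey not called at an adjusted p under 0.05 (limma), and a bar at the median of each whole list. Called genes lie on both sides of 0 in the synaptic list (*SYT4* at -3.19, *SYNGR3* at 2.49), and the medians lie between -0.13 and 0.31.

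**Figure D4:**
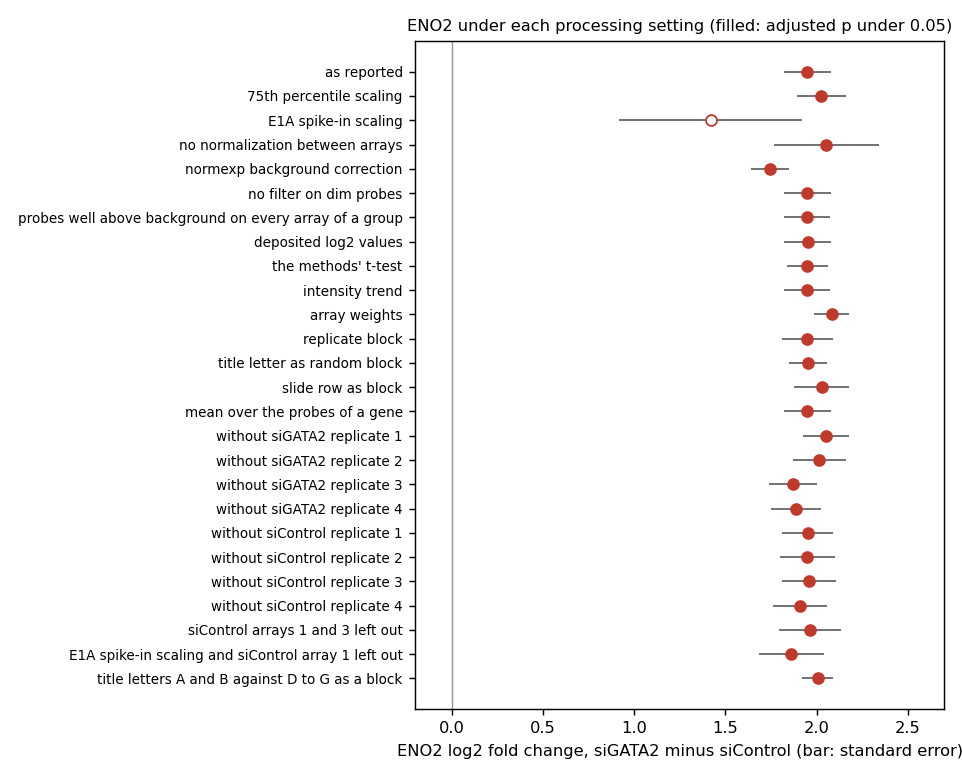
Log2 difference of *ENO2* (siGATA2 minus siControl, horizontal axis, bars are SE) as reported and under each of the 25 other ways of processing the arrays (rows); filled points had an adjusted p under 0.05. The values run from 1.42 to 2.08 and the open point is spike-in scaling.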

How the data were processed

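One-colour (Cy3) Agilent arrays of LNCaP total RNA, 4 siGATA2 and 4 siControl, were analysed. The submitters' processing notes name Agilent Feature Extraction 11.0.1.1. The intensity values are the background-subtracted processed signals of each spot in the deposited scanner files, with flags for outliers and for spots well above background. The deposited series matrix holds the authors' normalized log2 values, which correlated with those of their own array at 0.985 or more and were used as an alternative. The array design in the file headers differs from the one in the study's methods.

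For each probe, log2 signals of unflagged spots were averaged, followed by quantile normalization over the 8 arrays. As in the study's methods, 1914 unannotated probes and those with a mean log2 signal under 3 were left out. Of several probes per gene, the brightest was taken. Of 27902 probes with a RefSeq accession, 26364 were given a current symbol. The other annotated probes kept the identifier in the file, so the 28850 genes tested include transcripts without a symbol. A probe was well above background on an array where at least 50% of its unflagged spots were. No spot was saturated. Groups were compared with limma 3.58.1 (R 4.3.3) in place of the methods' t-test, over all 28850 genes with Benjamini-Hochberg adjustment, at 0.05. The number of arrays limits the precision, and the tests treated the 4 arrays of a group as independent. Some arrays of a group were closer than others. Between siGATA2 arrays 1 and 2 the SD of the log2 difference was 0.252, and between arrays 3 and 4 it was 0.338. Between siControl arrays 2 and 4 it was 0.364. For other arrays of the same group it ran from 0.707 to 1.02. In simulated data of 28730 genes with 200 changed, the fit recovered 40% of changes of 1 and 74% of changes of 2 on the log2 scale, and 3.39% of calls were false. The adjustment depends on the share of genes changed. In the data 26.5% of genes were called, so these percentages may not apply to them. All arrays were on 1 slide in 1 scan, with 3 siGATA2 arrays and 1 siControl array in slide row 1 and the reverse in row 2.

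The markers and lists were chosen with earlier results of these data known. Named genes were all 9 markers with every probe, *GATA2*, up to 3 called genes with the largest change in each direction per list (all called for the REST and paralog lists), and the 2 genes most alike in profile to each marker measured on all arrays. *UCHL1*, *SRRM3*, *VAMP2*, *SV2A* and other genes named as not called were added after their values were seen. A few list genes are counted but not reported by name here. Same-numbered arrays were not treated as pairs, since the replicate labels name no pairing. Deviations from the group means of same-numbered arrays correlated at 0.54, -0.31, 0.17 and 0.22, which cannot settle whether the samples were paired. Alternatives were other scalings and background corrections, no filter, the methods' t-test, array weights, blocks (replicate, title letter, slide row) and left-out arrays.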

Additional observations from a re-analysis of the deposited data

Results flagged for a closer look

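Of 48 groups of 4 values examined, of marker probes and of means over gene lists, 2 held an array far from the other 3. Both were of marker probes, and chance gives about 1 in 20 of all groups examined. *TUBB3* on siControl array 1 had a log2 signal of 11.97 against 12.63 to 12.65 on the other 3 siControl arrays, so that the gap took up 0.971 of the range. That array also had 28498 probes well above background, fewer than all but siControl array 3, and its part in the value was not tested. The *NCAM1* probe A_33_P3363799 on siControl array 3 had 5.44 against 3.07 to 3.46, a gap of 0.834 of the range, and it was not well above background there.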

How the results depend on the processing

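*ENO2* kept its direction under all 25 alternatives and its call under 24, with a log2 difference of 1.42 (adjusted p = 0.101) under spike-in scaling and 1.87 to 2.05 when 1 array was left out. Spike-in scaling moved the median of all genes from 0.09 to -0.43. It left 0 markers, 0 of their probes and 1 list gene higher, and gave *CHGA* -0.51, *SYP* -0.33, *NCAM1* -0.19, *SCG2* -0.15, *TUBB3* -0.66, *CHGB* -0.45 and *SCG3* -0.99, none of them called. Calls over all genes, 4086 lower and 3558 higher, became 1901 and 138 there, 1601 and 1617 without normalization and 5757 and 7198 with the block of title letters. Over the lists together, 23 genes were lower and 15 higher. Without normalization these were 14 and 7, and *CHGB* was 0.18 (0.16 with 75th percentile scaling). Background correction by normexp gave *SYP* -0.10. Array weights gave 29 list genes higher, *SYP* -0.15 and *TUBB3* 0.0431. The title letter as a random block gave 2 markers higher, *CHGB* 0.0106 and *TUBB3* 0.0216. The slide row as a block gave 9 list genes higher and *TUBB3* 0.0078. A mean over probes gave *NCAM1* -0.10. Without siControl arrays 1 and 3, *CHGA* was -0.0944 and *SYP* -0.58. With 1 array left out, *TUBB3* ran from -0.20 to 0.12, *CHGB* from -0.19 to 0.14, *SYP* from -0.22 to 0.52, and markers and probes called higher from 1 to 2 (2 without siControl array 4), while list genes called ran from 16 to 22 lower and 11 to 16 higher. Of 2 alternatives chosen after seeing the data, spike-in scaling without siControl array 1 gave 1 marker lower (*SCG3*), 9 list genes higher, *CHGA* -0.18, *CHGB* 0.0231 and *SYP* -0.0816, and the block of letters (A and B, D to G) gave 1 marker lower (*SCG3*), 35 list genes higher and *TUBB3* 0.15. The replicate block gave *ENO2* 1.95 (adjusted p = 0.00197) and changed no call of a marker. The cause of these shifts was not tested. Signal over background limits *CHGA*, *CHGB*, *SYP*, *SCG2*, *NCAM1* and *INSM1*.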
